A study of Homo sapiens with 12 samples.

Results

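The kinase mTOR works in 2 complexes, and the RNA of 10 genes that encode them or their closest regulators and substrates was followed here in 2 leukaemia cell lines exposed to obatoclax. The 10 genes were the kinase MTOR, the scaffolds RPTOR and RICTOR, the inhibitory subunits AKT1S1 and DEPTOR, the tuberous sclerosis genes TSC1 and TSC2, the small GTPase RHEB, and the substrates RPS6KB1 and EIF4EBP1. They were taken by name, by a rule that uses no measured value to pick a gene, but with earlier results of these data known. They are 10 of the 19775 genes with a probe set that the platform annotation pairs with a single gene symbol, and each was read from the 1 of its probe sets with the highest mean over the 12 arrays. Of the 10, 9 passed the filter on low values (above 4 on the log2 scale in at least 2 arrays), which 10561 genes passed in all, and DEPTOR did not.

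RS4:11 and SEM-K2 are established lines of acute lymphoblastic leukaemia that carry the MLL-AF4 (KMT2A-AFF1) fusion. Each was kept for 6 h with vehicle, with obatoclax at the EC50 of a 72 h assay (the concentration that gives an effect midway to the maximum), or with obatoclax at 3 times that dose, written 3xEC50. Obatoclax is a small molecule made to block the antiapoptotic proteins of the BCL2 family. The labels give no concentration for the EC50 of either line, so equal dose names need not mean equal concentrations. Each of the 6 groups had 2 biologic replicates on Affymetrix U133 Plus 2 arrays. The labels call the replicates biologic but name no separate culture, passage or day, so the errors and p-values below cover the spread between these arrays, which may be partly technical. Each line is 1 established culture, and both carry the fusion, so no group without it was measured.

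mTOR complex 1 (mTORC1) is built on RPTOR and is held back by AKT1S1 (also called PRAS40) and DEPTOR. It promotes translation by phosphorylating the kinase S6K1, encoded by RPS6KB1, and the translation repressor 4E-BP1, encoded by EIF4EBP1. mTOR complex 2 (mTORC2) is built on RICTOR and phosphorylates AKT. RHEB loaded with GTP activates mTORC1, and the TSC1 and TSC2 proteins together switch RHEB off. Most of this control acts on proteins, by phosphorylation and by location at the lysosome, and an array reads RNA only.

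The values are the authors' GCRMA values, read as log2, and a difference of 1 is 2-fold. Levels of different probe sets were not set against each other. All arrays had between 41.7% and 42.8% of probe sets above the floor of 4, and replicates correlated between 0.987 and 0.996 across genes. The array of SEM-K2 at 3xEC50, replicate 2, stood apart in its control probe sets: its log2 ACTB signal was 1.97 higher at the 3' end than at the 5' end, against 0.867 to 1.23 on the other 11 arrays, and its GAPDH difference was 0.61 against at most 0.302. The array of RS4:11 with vehicle, replicate 1, had the highest 18S ribosomal RNA signal, 9.85 against at most 6.98. Of 11 markers of B cell precursors, 8 were above the floor on all 12 arrays, while DNTT, RAG1 and BLNK were low in SEM-K2. Of 8 myeloid markers 7 were below the floor on every array, as were 8 of 9 T and NK cell markers, 3 of 4 erythroid and megakaryocyte markers and 6 of 8 fibroblast and epithelial markers.

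With obatoclax, none of the 9 tested genes passed the threshold, an adjusted p under 0.05 with limma over all genes tested, at either dose in either line. Of the 36 values that 9 genes, 2 doses and 2 lines give, 4 had a p under 0.05 before adjustment, and these were RPS6KB1 and EIF4EBP1 at both doses in RS4:11. The smallest adjusted p of the 36 was 0.587. Across all genes, 0.824% were called in SEM-K2 at 3xEC50 (87 genes), 0.17% in SEM-K2 at EC50 (18 genes) and 0% in RS4:11 at either dose, where 4.9% (518 genes) at 3xEC50 and 4.2% (444 genes) at EC50 had a p under 0.05 before adjustment. In SEM-K2 those shares were 11.7% and 5.47%. With 2 arrays against 2, both treated arrays lay beyond both vehicle arrays for 12 of the 36 values, and for 36.6%, 33.6%, 34.3% and 30.5% of all genes in those comparisons (SEM-K2 at 3xEC50 and at EC50, then RS4:11 at 3xEC50 and at EC50). Leaving AKT1S1 aside, the largest absolute log2 difference among the 36 was 0.59.

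**Figure D1:**
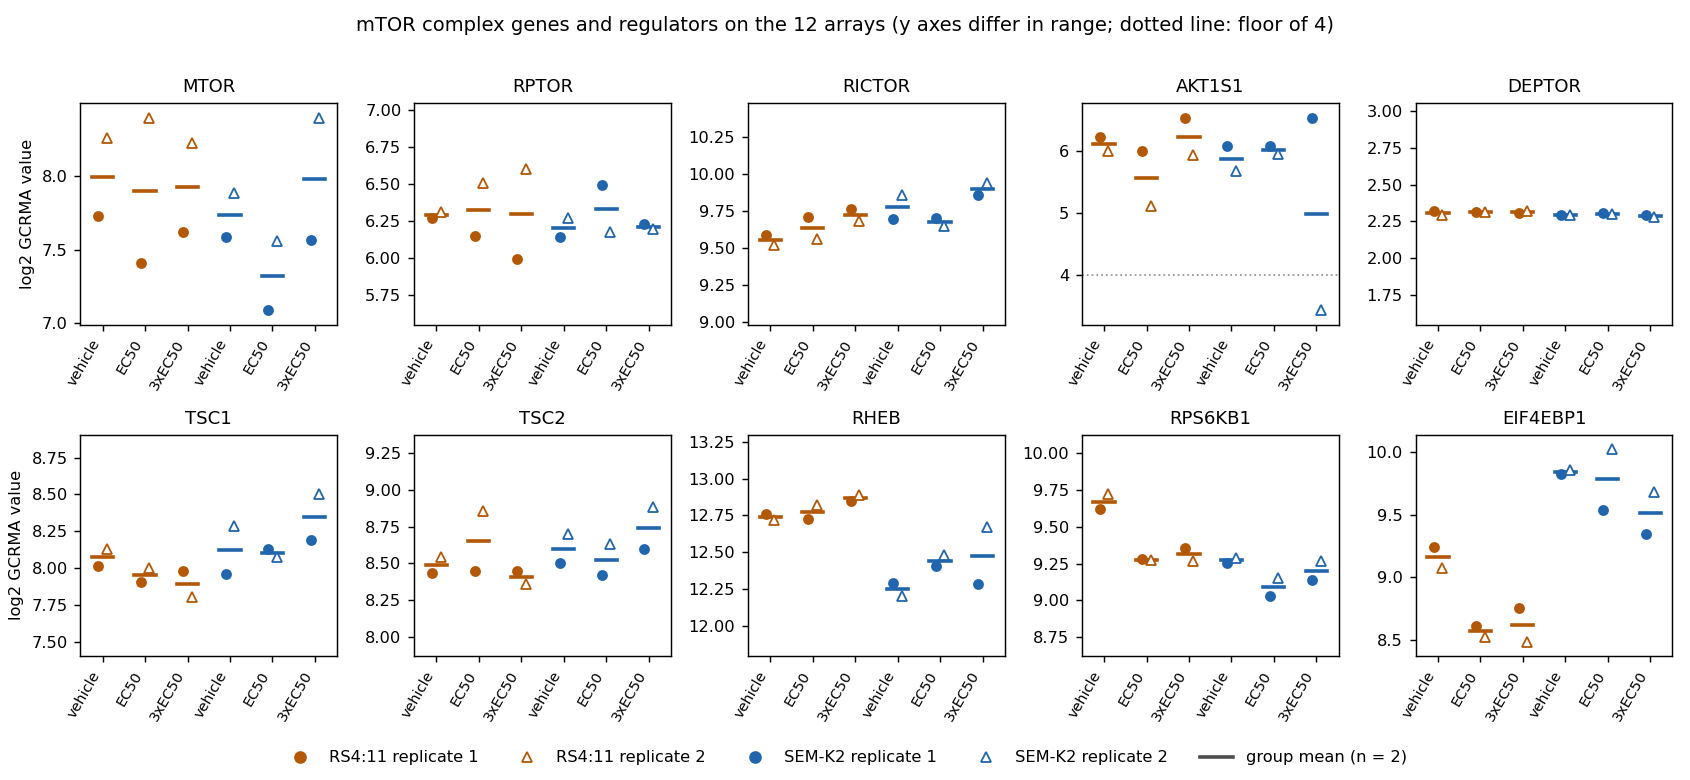
Log2 GCRMA values (y axes, whose range differs between panels) of the 10 genes in the 6 groups, with RS4:11 in orange and SEM-K2 in blue, replicate 1 as a filled circle, replicate 2 as an open triangle and the group mean as a bar. EIF4EBP1 and RHEB separate the lines, MTOR lies higher in replicate 2 of every group, AKT1S1 drops to 3.42 on a single array, and DEPTOR stays between 2.28 and 2.32.

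MTOR, the kinase of both complexes, read 7.73 and 8.26 in RS4:11 with vehicle (replicates 1 and 2), 7.41 and 8.39 at EC50 and 7.62 and 8.22 at 3xEC50. In SEM-K2 it read 7.59 and 7.89 with vehicle, 7.09 and 7.56 at EC50 and 7.57 and 8.40 at 3xEC50. The RS4:11 groups overlapped, and in SEM-K2 only the EC50 arrays lay below both vehicle arrays. The difference from vehicle (± the standard error) was -0.09 ± 0.39 at EC50 and -0.07 ± 0.39 at 3xEC50 in RS4:11, and -0.41 ± 0.39 and 0.25 ± 0.39 in SEM-K2. Between doses in SEM-K2, MTOR was 0.66 ± 0.39 higher at 3xEC50 than at EC50, with an adjusted p of 1 and a 95% interval from -0.23 to 1.55. Of the 10561 genes tested, 0% were called between the doses in either line.

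MTOR differed more between replicate numbers than between treatments. Replicate 2 was higher than replicate 1 in all 6 groups, by 0.30 to 0.98. Replicate number took 58.7% of the variance of MTOR over the 12 arrays, treatment within a line 23.2% and line 10.3%, whereas the medians over all genes tested were 8.62%, 18.3% and 33.7%. Of all genes tested, 921 (8.72%) were higher in replicate 2 in all 6 groups and 1375 (13%) were lower in all 6, so MTOR is one of many with a fixed direction. Fitting the replicate number as a block left MTOR uncalled in every comparison. What the replicate numbers stand for beyond separate biologic samples is not stated in the labels, and its part in the spread of MTOR was not tested.

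RPTOR, the scaffold that brings substrates to mTORC1, lay between 5.99 and 6.60 over the 6 RS4:11 arrays and between 6.14 and 6.49 over the 6 SEM-K2 arrays. Its 4 differences from vehicle ran from 0.01 to 0.13, and its line difference was -0.06 ± 0.13. The 6 group means of RPTOR lay between 6.21 and 6.33, against a standard error of 0.22 for a difference. The widest gap between its replicates, 0.61 in RS4:11 at 3xEC50, was larger than any difference between its group means.

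RICTOR, the scaffold of mTORC2, read 9.59 and 9.52 in RS4:11 with vehicle, 9.71 and 9.56 at EC50 and 9.76 and 9.68 at 3xEC50. The SEM-K2 arrays read 9.69 and 9.86 with vehicle, 9.70 and 9.65 at EC50 and 9.86 and 9.94 at 3xEC50. Its replicates lay close together, within 0.17 of each other in every group. At 3xEC50 the difference from vehicle was 0.17 ± 0.14 in RS4:11, where the groups did not overlap, and 0.12 ± 0.14 in SEM-K2, where they did. With 95% intervals from -0.14 to 0.47 and from -0.18 to 0.43, a 2-fold change was outside the interval of this probe set in either line. Over the other 3 RICTOR probe sets above the floor, 8 of 12 differences from vehicle were above 0 and 4 below, from -0.32 to 0.31.

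AKT1S1, the proline-rich AKT substrate that inhibits mTORC1 until it is phosphorylated, gave the widest spread of the 9 genes. In RS4:11 it read 6.22 and 6.00 with vehicle, 6.01 and 5.11 at EC50 and 6.54 and 5.93 at 3xEC50. Its SEM-K2 values were 6.08 and 5.67 with vehicle, 6.08 and 5.94 at EC50 and 6.54 and 3.42 at 3xEC50. The 2 SEM-K2 arrays at 3xEC50 were the highest and the lowest of all 12, and the lowest, under the floor, was the array whose ACTB and GAPDH control probe sets stood apart. Replicate 2 was the lower in all 6 groups, by 0.14 to 3.12.

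The AKT1S1 difference in SEM-K2 at 3xEC50, -0.89 ± 0.78 with an adjusted p of 0.725, therefore turned on single arrays. Without replicate 2 of that group it was 0.67 with an adjusted p of 0.752. Without replicate 1 the group is the 1 array below the floor, so no size is given; limma then called AKT1S1 lower than vehicle and lower than EC50, with the lone array taken to vary like the other groups. The second AKT1S1 probe set, 1555821_a_at, was above the floor on only 3 arrays and gave 0.22 in SEM-K2 at 3xEC50. That array also held the highest of the 12 values of MTOR, RICTOR, TSC1 and TSC2. Without it, the 3xEC50 differences in SEM-K2 were -0.17 for MTOR in place of 0.25, 0.07 for TSC1 in place of 0.22, 0.00 for TSC2 in place of 0.14 and 0.03 for RHEB in place of 0.23. The negative differences grew, to -0.49 for EIF4EBP1 in place of -0.32 and to -0.13 for RPS6KB1 in place of -0.07. Its control probe set values move with these readings, and their part was not tested.

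DEPTOR, the other inhibitory subunit, binds both complexes. Its 2 probe sets were below the floor on all 12 arrays, and the one used here read between 2.28 and 2.32. DEPTOR was therefore not above the floor in any group, and no difference between groups was computed.

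TSC1, which stabilises the TSC complex, read 8.01 and 8.13 in RS4:11 with vehicle, 7.91 and 8.01 at EC50 and 7.98 and 7.81 at 3xEC50. The values in SEM-K2 were 7.96 and 8.28 with vehicle, 8.13 and 8.07 at EC50 and 8.19 and 8.50 at 3xEC50. Both RS4:11 doses lay below both vehicle arrays, and the SEM-K2 doses overlapped vehicle. At 3xEC50 the difference from vehicle was -0.18 ± 0.17 in RS4:11 and 0.22 ± 0.17 in SEM-K2. The difference between these responses was 0.40 ± 0.24 with an adjusted p of 1, so opposite signs here are not a difference between the lines past the threshold.

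TSC2, the subunit with the GTPase-activating domain that acts on RHEB, lay between 8.36 and 8.85 in RS4:11 and between 8.42 and 8.88 in SEM-K2. Its differences from vehicle were 0.16 ± 0.18 at EC50 and -0.08 ± 0.18 at 3xEC50 in RS4:11, and -0.07 ± 0.18 and 0.14 ± 0.18 in SEM-K2. All neighbours in the order of the 6 group means of TSC2 overlapped. Replicate 2 was higher in 5 of 6 groups, and replicate number took 32.6% of its variance.

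RHEB, the direct activator of mTORC1, read 12.76 and 12.72 in RS4:11 with vehicle, 12.73 and 12.82 at EC50 and 12.85 and 12.89 at 3xEC50. SEM-K2 gave 12.30 and 12.21 with vehicle, 12.40 and 12.48 at EC50 and 12.28 and 12.67 at 3xEC50. Every RS4:11 array was above every SEM-K2 array, and within a line the treated groups lay 0.04 to 0.23 above vehicle on average. The 4 drug differences had standard errors of 0.15 and none was called. Their direction did not hold over the other 6 RHEB probe sets above the floor, for which 13 of 24 differences from vehicle were above 0 and 11 below, from -0.63 to 0.40.

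RPS6KB1, which encodes the kinase of ribosomal protein S6, read 9.62 and 9.72 in RS4:11 with vehicle, 9.28 and 9.27 at EC50 and 9.35 and 9.27 at 3xEC50. Its values in SEM-K2 were 9.26 and 9.29 with vehicle, 9.03 and 9.15 at EC50 and 9.14 and 9.27 at 3xEC50. The 2 RS4:11 vehicle arrays were the highest of all 12, above all 4 treated RS4:11 arrays. The difference from vehicle in RS4:11 was -0.39 ± 0.13 at EC50 and -0.36 ± 0.13 at 3xEC50, with adjusted p-values of 1 and 0.852. In SEM-K2 it was -0.18 ± 0.13, with groups that did not overlap, and -0.07 ± 0.13, with groups that did.

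EIF4EBP1, the repressor that releases the cap-binding protein eIF4E when mTORC1 phosphorylates it, read 9.24 and 9.08 in RS4:11 with vehicle, 8.61 and 8.53 at EC50 and 8.76 and 8.49 at 3xEC50. SEM-K2 arrays gave 9.82 and 9.85 with vehicle, 9.54 and 10.02 at EC50 and 9.35 and 9.68 at 3xEC50. As with RPS6KB1, both RS4:11 vehicle arrays were above all 4 treated ones, and in SEM-K2 only the 3xEC50 arrays lay below vehicle. The RS4:11 differences were -0.59 ± 0.20 at EC50 and -0.54 ± 0.20 at 3xEC50, with adjusted p-values of 1 and 0.853. The SEM-K2 differences were -0.06 ± 0.20 and -0.32 ± 0.20.

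Averaging both doses in RS4:11 gave -0.38 ± 0.11 for RPS6KB1 (95% interval -0.63 to -0.12, adjusted p 0.558) and -0.56 ± 0.17 for EIF4EBP1 (95% interval -0.95 to -0.18, adjusted p 0.559). The other RPS6KB1 probe sets above the floor gave smaller averages, -0.21 ± 0.13 with 204171_at (p 0.147 before adjustment) and -0.10 ± 0.14 with 211578_s_at (p 0.479). Both genes share the same 2 vehicle arrays, as do the 2 doses of each gene. Without a block, neither was called, and 0% of all genes were called in this comparison, in which 5.93% (626 genes) had a p under 0.05 before adjustment. With a replicate block, some other genes were called in it, as given below. In 19.1% of all genes, as for these 2 genes and TSC1, all 4 treated RS4:11 arrays lay on the same side of both vehicle arrays. With the replicate block within each line, the adjusted p of EIF4EBP1 was 0.122, and neither gene was called with either block. The same average in SEM-K2, where 0.748% of all genes were called, was -0.13 ± 0.11 for RPS6KB1 and -0.19 ± 0.17 for EIF4EBP1.

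The response of EIF4EBP1 at EC50 was 0.53 ± 0.28 less negative in SEM-K2 than in RS4:11, with an adjusted p of 1 and a 95% interval from -0.09 to 1.16. For RPS6KB1 the same difference was 0.21 ± 0.18. No response of the 9 genes was called as different between the lines, at EC50, at 3xEC50 or over both doses, where 0.00947%, 0.0379% and 0.0663% of all genes were. A p that misses the threshold does not show that the lines responded alike, and the intervals of these differences ran from -1.58 (MTOR at EC50) to 1.57 (MTOR at 3xEC50) among the 8 genes other than AKT1S1.

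**Figure D2:**
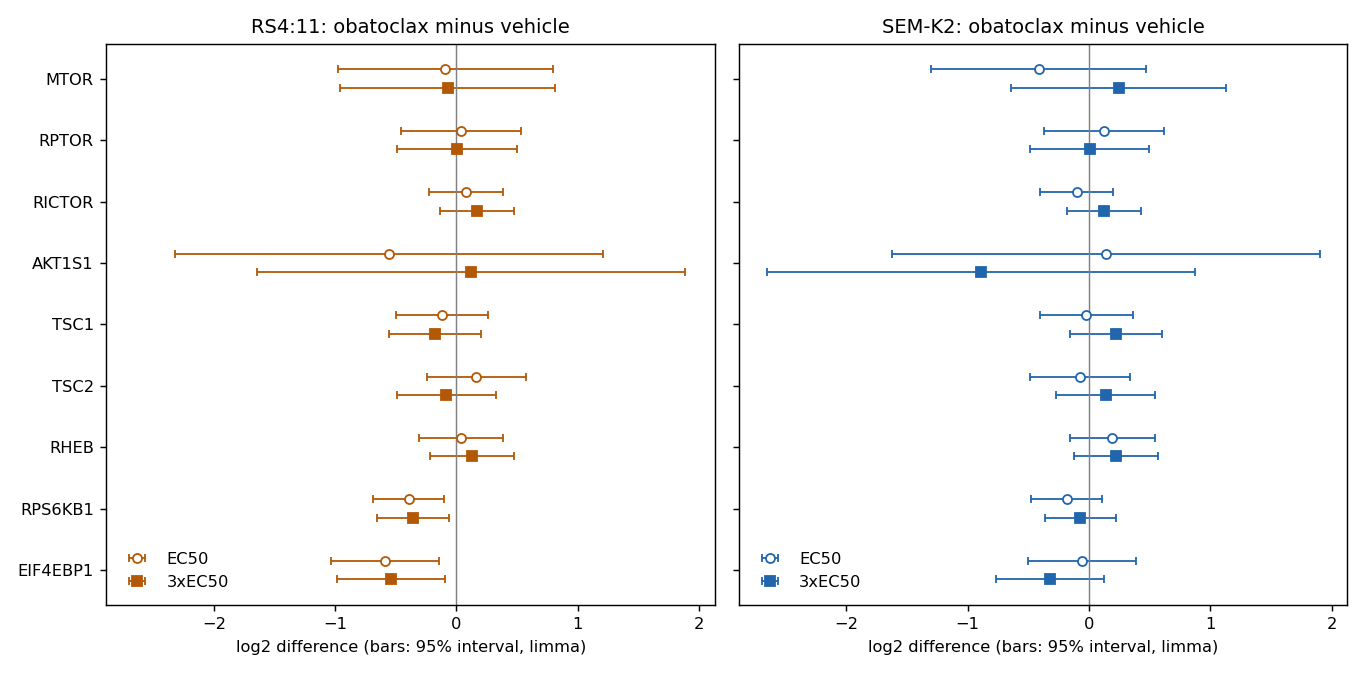
Difference from vehicle on the log2 scale (x axis) for the 9 tested genes, at EC50 (open circles) and 3xEC50 (filled squares), in RS4:11 on the left and SEM-K2 on the right, with 95% intervals from limma. Only RPS6KB1 and EIF4EBP1 in RS4:11 have intervals that leave out 0, none of which passed adjustment over all genes, and AKT1S1 has the widest intervals.

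The intervals set how large a change could have been missed. Over the 8 tested genes besides AKT1S1, the 95% intervals at 3xEC50 ran from -0.76 to 1.13 in SEM-K2 (0.589-fold to 2.19-fold) and from -0.98 to 0.82 in RS4:11 (0.507-fold to 1.76-fold). The upper limit in SEM-K2 belongs to MTOR. All these intervals come from the fit without a block. For MTOR they include the spread between replicate numbers, which took 58.7% of its variance. At EC50 the intervals of the 8 genes ran from -1.30 to 0.62 in SEM-K2 and from -1.03 to 0.79 in RS4:11. The median difference of the 9 genes was 0.12 in SEM-K2 at 3xEC50 against 0.06 over all genes tested, and -0.07 in RS4:11 at 3xEC50 against 0.02. The SEM-K2 median includes the array that stood apart in its control probe sets, without which several of these differences changed, as given above.

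The lines differed in 3 of the 9 genes when all treatments were averaged: EIF4EBP1 was higher in SEM-K2, and RHEB and RPS6KB1 were lower. This share is read against 41.1% of all genes tested, 23.3% higher and 17.8% lower in SEM-K2, so the 3 calls do not set the 9 genes apart from other genes. EIF4EBP1 ran from 8.49 to 9.24 over the 6 RS4:11 arrays (median 8.69) and from 9.35 to 10.02 over the 6 SEM-K2 arrays (median 9.75), with no overlap. Its difference was 0.93 ± 0.11, which is 1.90-fold, with an adjusted p of 1.39e-04, and it was called under every alternative that was run. Line took 77.0% of its variance.

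RHEB ran from 12.72 to 12.89 in RS4:11 (median 12.79) and from 12.21 to 12.67 in SEM-K2 (median 12.35), also with no overlap. The SEM-K2 minus RS4:11 difference of RHEB was -0.40 ± 0.09, which is 1.32-fold, with an adjusted p of 0.00537, and line took 74.6% of its variance. Groups without overlap made up 27.9% of all genes in this comparison. RPS6KB1 ran from 9.27 to 9.72 in RS4:11 (median 9.32) and from 9.03 to 9.29 in SEM-K2 (median 9.20), and these ranges overlapped. Its difference was -0.23 ± 0.08 with an adjusted p of 0.0344. That call was lost without any 1 of 9 arrays, all but RS4:11 with vehicle replicate 1, SEM-K2 with vehicle replicate 2 and SEM-K2 at 3xEC50 replicate 2, when the difference ran from -0.25 to -0.21 and the adjusted p from 0.0526 to 0.0938. It was also lost without both arrays that stood apart (-0.27, adjusted p 0.054) and with the mean of its probe sets (-0.16, adjusted p 0.0632).

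The other 6 genes were not called between the lines. TSC1 was 0.21 ± 0.10 and RICTOR 0.15 ± 0.08 higher in SEM-K2, with adjusted p-values of 0.11 and 0.169, and TSC2 was 0.11 ± 0.10 higher. MTOR differed by -0.26 ± 0.23 and AKT1S1 by -0.34 ± 0.45. AKT1S1 was called lower in SEM-K2 without replicate 1 of SEM-K2 at 3xEC50, which leaves that group with only the array below the floor, so no size is given.

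**Figure D3:**
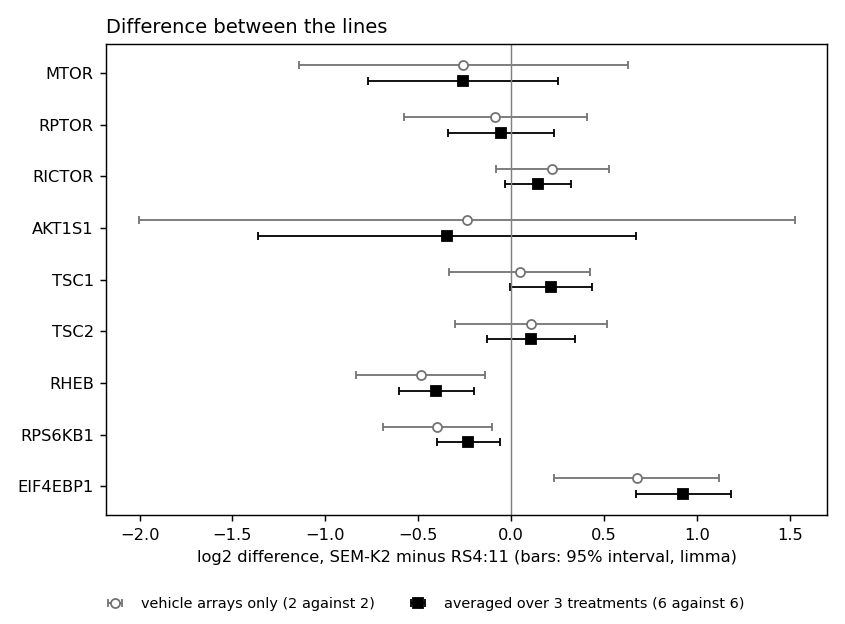
Difference between the lines, SEM-K2 minus RS4:11, on the log2 scale (x axis) for the 9 tested genes, from the vehicle arrays alone (open circles) and averaged over the 3 treatments (filled squares), with 95% intervals from limma. EIF4EBP1 lies to the right of 0, RHEB and RPS6KB1 lie to the left, and the other intervals reach across 0.

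With vehicle alone, 2 arrays against 2, EIF4EBP1 was 0.68 ± 0.20 higher in SEM-K2 (adjusted p 0.0398) and was the only call, where 19.6% of all genes were called. RHEB differed by -0.49 ± 0.15 (adjusted p 0.0559) and RPS6KB1 by -0.40 ± 0.13 (adjusted p 0.0642). With replicate number as a block, all 3 were called, RHEB with an adjusted p of 0.0343 and RPS6KB1 with 0.0395. The EIF4EBP1 call with vehicle was lost without any 1 of the 6 RS4:11 arrays or either SEM-K2 vehicle array, when the difference ran from 0.59 to 0.76 and the adjusted p from 0.0521 to 0.189, without both arrays that stood apart (0.76, adjusted p 0.0787), and with no filter on low values (0.68, adjusted p 0.0814).

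In the order of the 6 group means, the 3 groups of a line stood together for RHEB, RPS6KB1, EIF4EBP1 and TSC1. Of the 5 pairs of neighbouring groups in that order, 2 overlapped for RHEB and 3 for EIF4EBP1, while 4 or 5 overlapped for each of the other 7 tested genes. For RPS6KB1 the RS4:11 vehicle group stood clear at the top, and the other neighbours overlapped. Treatment within a line took 54.8% of the variance of RPS6KB1 and line 39.2%.

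The probe sets of a gene did not always agree. The 10 genes have 27 probe sets with a single symbol, 21 of them above the floor in at least 2 arrays, of which RHEB has 7. For the line difference averaged over treatments, RHEB was also called with 1555780_a_at (-0.53, adjusted p 0.00366) and 201452_at (-0.63, adjusted p 0.00253). It was not called with 213404_s_at (-0.35, adjusted p 0.0549), 213409_s_at (-0.18) or 241795_at (-0.08), and 227633_at gave the other sign (0.11, adjusted p 0.565). The chosen RHEB probe set, 201453_x_at, carries the suffix of probe sets whose probes can match other transcripts.

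For RICTOR the main probe set gave 0.15 and the others gave -0.22, 0.30 and -0.36, so its direction between the lines depended on the probe set. Both other RPS6KB1 probe sets gave the same sign as the main one and smaller differences, -0.09 and -0.17, neither of them called. EIF4EBP1, RPTOR and TSC1 have 1 probe set each, so their values have no second reading on this array.

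**Figure D4:**
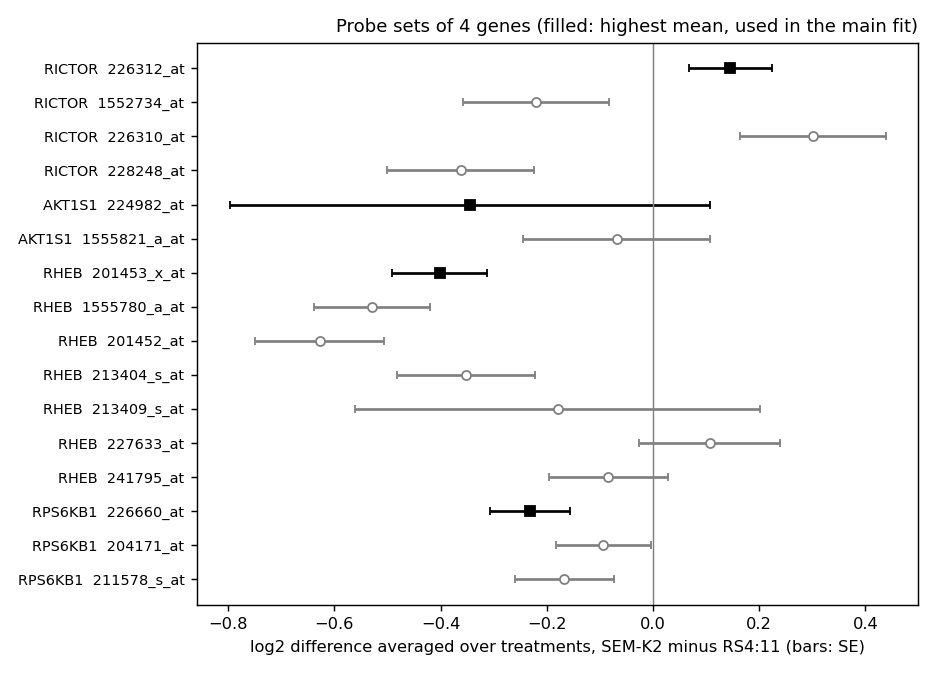
Line difference averaged over treatments, SEM-K2 minus RS4:11, on the log2 scale (x axis, bars show the standard error), for each probe set above the floor of RICTOR, AKT1S1, RHEB and RPS6KB1. The filled squares are the probe sets with the highest mean, and 6 of the 7 RHEB probe sets lie to the left of 0 while the RICTOR probe sets fall on both sides.

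Within lines, RPS6KB1 and EIF4EBP1 varied together, with a correlation of 0.78 over the 12 arrays after the mean of each line was removed. MTOR and TSC2 had a correlation of 0.74, MTOR and AKT1S1 of -0.74, and AKT1S1 and TSC2 of -0.75. These are descriptions over arrays that share treatments, replicate numbers and the array of SEM-K2 at 3xEC50 that stood apart, which is extreme in MTOR, TSC2 and AKT1S1.

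By the same measure, the gene most like MTOR among those tested was GGA3 (correlation 0.96), and the gene most like TSC2 was FHIP1B (0.97). For AKT1S1 it was CDK9 (0.97), which ranged from 6.60 to 9.64. RPS6KB1 was most like ASL (0.95) and EIF4EBP1 most like GSPT1 (0.95). The others were C21orf91 for RPTOR (0.88), NR2C2 for RICTOR (0.87), IKBKG for TSC1 (0.92) and RAB31 for RHEB (0.94). Each is the best of all other genes tested, over only 12 arrays, so a high value is not support for a relation.

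Around the 10 genes, 70 further genes of the pathway were listed by role, and 64 of them were tested. The list was chosen with earlier results of these data known. Its counts, set beside the shares of all genes, therefore describe the list and do not test it. In SEM-K2 at 3xEC50, 5 of the 64 rose and none fell, where 0.625% of all genes rose (66 of 10561), and at EC50 1 rose, where 0.114% did (12 of 10561). The 5 include DDIT4L, which passed the filter on low values only through the 2 SEM-K2 arrays at 3xEC50. In RS4:11 none of the 64 was called at either dose. There 10 of the 64 at EC50 and 10 at 3xEC50 were under 0.05 before adjustment, against 4.2% and 4.9% of all genes. The 5 calls became 0 without replicate 2 of SEM-K2 with vehicle, 2 without replicate 2 of SEM-K2 at 3xEC50 and 1 (DDIT4L) without both arrays that stood apart. They became 7 with the replicate block, which added RHEBL1 and RRAGD, and 9 with the block within each line, which also added FNIP1 and EEF2K. The 0.625% and 0.114% of all genes come from the fit without a block and are no match for counts with a block. Calls over all genes also rose with either block, as the closing section gives. At EC50, RRAGD was called beside FLCN with either block (RRAGD difference 1.10, adjusted p 0.34 without a block, 0.0341 with the replicate block and 0.0263 with it within each line). Fitted to the SEM-K2 arrays alone, none was called. With both doses averaged, 3 of the 64 were called in RS4:11 with either block (FLCN, FNIP2 and RHEBL1). The 0% of all genes given for that comparison came from the fit without a block. It is no match for these 3 calls, and the share of all genes with a block is not given here.

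Without a block, the 5 calls belonged to the 2 input roles, which hold 29 and 15 of the 64 tested genes. Whether calls favour a role was not tested. Of 29 tested genes that carry the amino acid signal at the lysosome, 3 rose in SEM-K2 at 3xEC50, beside the 0.625% of all genes. FLCN, which encodes folliculin, a GTPase-activating protein for the Rag GTPases RRAGC and RRAGD, read 5.59 and 5.63 with vehicle and 7.00 and 6.99 at 3xEC50 (1.38 ± 0.15, adjusted p 0.00581), and it was also called at EC50 (1.10, adjusted p 0.0332). Its RS4:11 differences were 1.06 at EC50 and 0.95 at 3xEC50 with adjusted p-values of 0.224 and 0.245, and its difference in response at 3xEC50 was 0.43 ± 0.22 (adjusted p 1). FNIP2, the partner of folliculin, rose by 1.04 ± 0.14 (adjusted p 0.015) and RRAGC by 1.03 ± 0.17 (adjusted p 0.0353). In RS4:11 at 3xEC50 these differed from vehicle by 0.84 and 0.35 without a call. With the mean of each gene's probe sets, FLCN gave 0.81 (adjusted p 0.0822), FNIP2 0.66 (adjusted p 0.054) and RRAGC 0.84 (adjusted p 0.0672) at 3xEC50. The RRAGC call was lost without any 1 of 10 arrays (adjusted p 0.0595 to 0.251), and the FLCN call at EC50 without any 1 of the 12 (0.0613 to 0.261).

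Of 15 tested genes that pass growth factor or energy signals to TSC and RHEB, 2 rose in SEM-K2 at 3xEC50, beside the same 0.625%. DDIT4L, a relative of the mTORC1 inhibitor DDIT4, read 2.39 and 2.09 with vehicle, 3.08 and 3.45 at EC50 and 4.38 and 5.47 at 3xEC50, and was below the floor on all RS4:11 arrays. Measured from the floor, it was at least 1.90-fold higher at 3xEC50 than with vehicle. DDIT4L passed the filter only through these 2 arrays, so its call is no independent support for a difference, and its other values are below the floor. IRS2, an adaptor of the insulin receptor, rose by 0.82 ± 0.14 (adjusted p 0.041), a call that was lost without any 1 of the 12 arrays (0.0535 to 0.262) and with each array centred on its median (0.73, adjusted p 0.0878). RHEBL1, the paralogue of RHEB, had the smallest p of this role in RS4:11 at 3xEC50, where it read 6.28 and 5.11 with vehicle and 7.87 and 7.64 after treatment (2.06 ± 0.41, adjusted p 0.357). In SEM-K2 it read 7.88 and 7.07 with vehicle and 8.92 and 8.71 at 3xEC50 (1.34 ± 0.41, adjusted p 0.245), a difference that was called with the replicate block (adjusted p 0.0355) and with the block within each line (0.0402). In RS4:11 the blocks left RHEBL1 uncalled at 3xEC50 (adjusted p 0.0909 and 0.0845). In both lines both RHEBL1 arrays at 3xEC50 lay above both vehicle arrays. Groups without overlap made up 34.3% of all genes in RS4:11 and 36.6% in SEM-K2 at that dose. RHEB itself differed by 0.13 in RS4:11, where its arrays did not overlap either, and by 0.23 in SEM-K2, where they did.

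None of 7 complex partners and none of 13 further targets was called with obatoclax. The smallest p of each role belonged in SEM-K2 at 3xEC50 to TTI2 (0.51, adjusted p 0.522) and to EEF2K, the kinase of elongation factor 2 (0.67 ± 0.18, adjusted p 0.187). EEF2K was called with the replicate block within each line (adjusted p 0.0445) and without replicate 1 of SEM-K2 with vehicle (adjusted p 0.0423). In RS4:11 at 3xEC50 they belonged to PRR5L (1.01 ± 0.51, adjusted p 0.999) and to GRB10 (-0.61 ± 0.17, adjusted p 0.611).

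**Figure D5:**
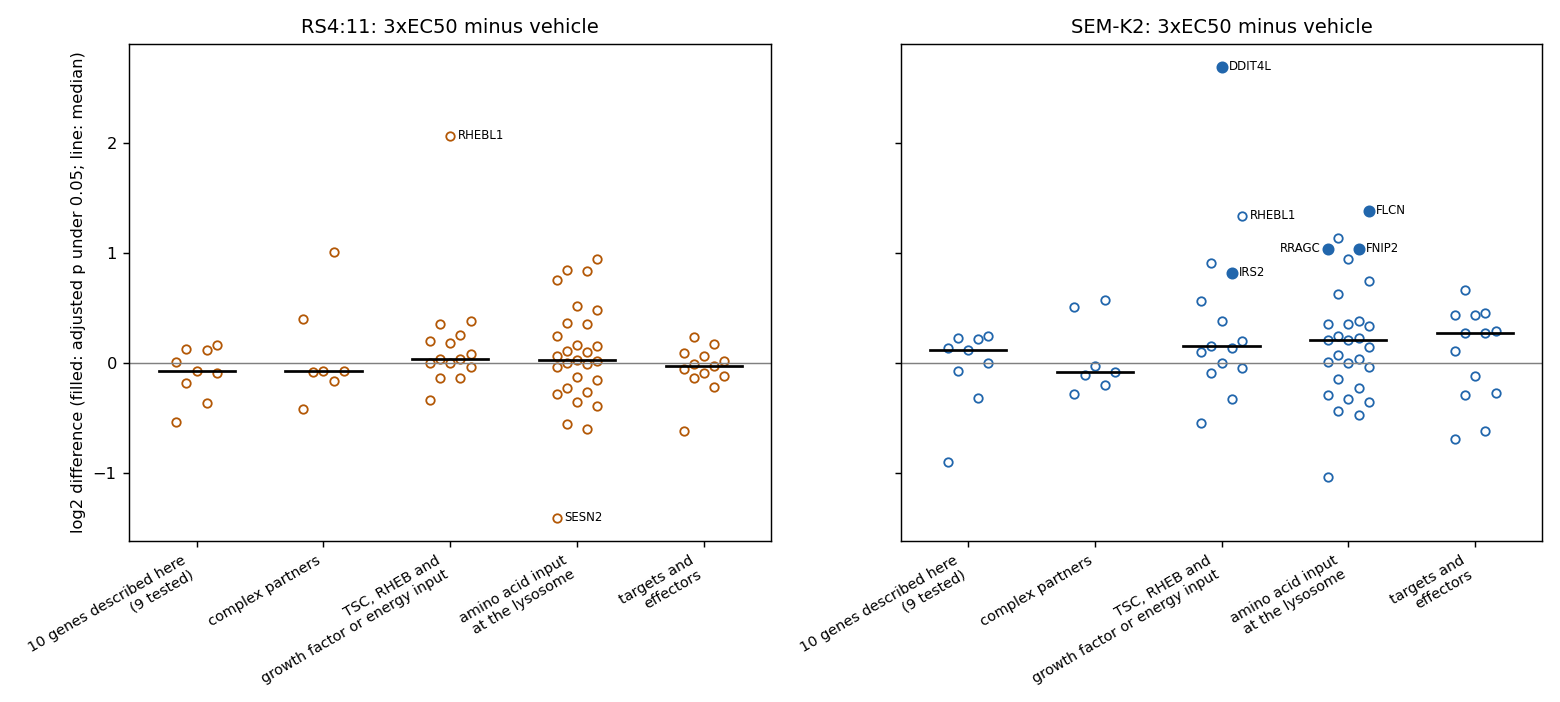
Difference of 3xEC50 from vehicle on the log2 scale (y axis) for the 9 tested genes of the complexes and for the 64 further pathway genes by role, in RS4:11 on the left and SEM-K2 on the right. Each circle is a gene, filled where the adjusted p was under 0.05, and the bar is the median of the role, which lies between -0.08 and 0.28 in every role, while the 5 filled circles belong to the input roles in SEM-K2.

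The lines differed in 24 of the 64 further genes averaged over treatments, 15 higher and 9 lower in SEM-K2, against the 41.1% of all genes given above. The mTORC2 subunit PRR5 was below the floor on all SEM-K2 arrays, with 2.07 to 2.58, and read 5.16 to 6.37 in RS4:11, at least 3.45-fold higher from the floor. It passed the filter only through the RS4:11 arrays, so its call adds nothing to that description. Its relative PRR5L was also lower in SEM-K2 (-2.14, adjusted p 2.97e-04). PRR5L read 3.18 to 5.17 over the SEM-K2 arrays, so this size rests in part on values below the floor. SGK1, a kinase that mTORC2 phosphorylates, was 2.42 higher in SEM-K2 (adjusted p 3.65e-07), and the phosphatidate phosphatase LPIN1 was 1.14 higher (adjusted p 6.21e-05). RHEBL1 was 1.29 higher, and KPTN and NPRL3, of the complexes that hold back the amino acid signal, differed by -1.17 and -0.65. DDIT4L, counted among the 15, has no measured line difference: with vehicle it was below the floor in both lines, and only the 2 SEM-K2 arrays at 3xEC50 were above it. RHEB and RHEBL1 differed between the lines in opposite directions, and the mTORC2 scaffold RICTOR was not called where PRR5 and PRR5L were.

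A promoter window of TSC2 and that of RRAGC are shown because both hold CACGTG, and because RRAGC was called while TSC2 was not. CACGTG is the core of the site bound by TFEB, a transcription factor that mTORC1 keeps out of the nucleus. The choice was made after the values were seen. In the 250 bases before the start, CACGTG, which reads the same on both strands, was searched in RefSeq windows of GRCh38.p14. It was found in 6.34% of all 35116 windows, in 1 of the 7 genes of the 10 that the table holds (MTOR, RPTOR, RICTOR, TSC1, TSC2, RHEB and RPS6KB1), and in RRAGC but not in the windows of FLCN and FNIP2. TSC2 has 2 windows and only 1 of them holds CACGTG, so the count of genes and the share of windows are unlike units. AKT1S1, DEPTOR and EIF4EBP1 had no entry. Each stretch of 60 bases below runs 5′ to 3′ along the gene, with CACGTG in capitals, from chr16:2047844-2047903 (plus strand) for TSC2 and chr1:38859852-38859911 (minus strand) for RRAGC.
TSC2: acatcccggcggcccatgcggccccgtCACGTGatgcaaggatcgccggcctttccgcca
RRAGC: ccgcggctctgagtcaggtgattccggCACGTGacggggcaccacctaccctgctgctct
A match describes the letters only, and the arrays measured no binding at either place.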

How the data were processed

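Per the submitters' processing notes, the authors made the deposited values with GCRMA, whose version is not stated; GCRMA corrects background by probe sequence and normalises arrays together. The notes name no scale, and the deposited values were read as log2 from their range. Control probe sets and those without exactly 1 symbol were left out, and the probe set with the highest mean stood for a gene. A gene was tested where it exceeded 4 on at least 2 arrays. The package limma (version 3.58.1, in R 4.3.3, with data.table, version 1.17.8) fitted 6 group means with lmFit and eBayes over all 12 arrays, with 6 residual and 3.27 prior degrees of freedom, and 13 contrasts were adjusted by Benjamini-Hochberg over all genes. The scripts were tested on simulated data.

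The 10 genes and all lists were chosen with earlier results of these data known. All 10 were to be named. Further pathway genes were named where called against vehicle, with the smallest p of a role at 3xEC50, or as the up to 2 largest called line differences of a role. The likeness rule took 1 gene for each.

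Deviations of same-numbered arrays from their group means correlated at 0.35 to 0.60 within a line (6 pairs) and 0.191 to 0.402 across lines (9 pairs). Same-numbered arrays thus deviated alike in part, and a replicate block was run as an alternative. The fit given throughout has no block, since the labels give a replicate number but no shared batch. Its standard errors, intervals and adjusted p-values therefore include any shift that same-numbered arrays share. For the 9 genes, the value with the replicate block stands beside a result where it changes the call. For the further pathway genes it is given for only some such results. Their number, not depth, limits the precision of arrays. The alternatives are given in the closing section; leaving out both arrays that stood apart was chosen after seeing the data.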

Additional observations from a re-analysis of the deposited data

How the results depend on the processing

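The count of the 9 genes called was 0 in all 11 comparisons within or between responses, under every alternative but 1: without replicate 1 of SEM-K2 at 3xEC50 it was 1 (AKT1S1) against vehicle and 1 against EC50, so leaving out single arrays gave 0 to 1 there; that group is then 1 array, with AKT1S1 below the floor. Between the lines with vehicle, the 1 gene called was EIF4EBP1. With no filter on low values the count was 2, but EIF4EBP1 was not among them, since its call was lost there. The count was 2 with trend and robust settings, 3 with the replicate block and 3 with that block fitted inside each line. Without both arrays that stood apart it was 0, and without single arrays 0 to 2. Averaged over treatments, the 3 calls stayed 3 with the replicate block and were 2 to 3 without single arrays. The RPS6KB1 call was lost with the mean of its probe sets and without both arrays that stood apart. RHEB was not called with 213404_s_at (adjusted p 0.0549 with limma), its probe set with the next highest mean, while 1555780_a_at and 201452_at kept the call. RHEB reversed with probe set 227633_at (0.11), and the cause was not tested.

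The block changed no other call of the 9 genes. Over all genes, calls in SEM-K2 at 3xEC50 went from 87 to 220 with the block, 299 with the block within each line, and 14 to 169 without single arrays; at EC50 they went from 18 to 46, 70, and 3 to 17. Fitting each line alone left none of the 64 further genes called. Precision was limited by 2 arrays in a group, and DEPTOR by its signal below the floor.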
